A study of Mus musculus with 24 samples.

Results

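The clustered protocadherins are a family of cadherin-like cell surface proteins whose genes stand in 3 neighbouring clusters, alpha, beta and gamma, on mouse chromosome 18. All genes of the deposited read count table whose names begin with Pcdha, Pcdhb or Pcdhg and that had at least 1 read in the 24 mice were taken. This gave 57 genes of the 46983 in the table, of which 32020 had a read. The alpha cluster held 14 of them, the beta cluster 22 and the gamma cluster 21. One further name, *Pcdhga10*, was at 0 in every mouse, so that 58 names matched in all.

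Bulk mRNA of the hippocampus was sequenced from adult female mice on a C57BL/6 background, of 2 genotypes, *Fkbp5*lox/lox and *Fkbp5*Nex, each reared under a control or an ELS condition (4 groups of 6). All mice carried floxed alleles of *Fkbp5*, the gene of the stress-related co-chaperone FKBP51. *Fkbp5*lox/lox mice had no Cre recombinase and stood for wild types, whereas *Fkbp5*Nex mice expressed Cre from the *Nex* (*Neurod6*) locus. This removes *Fkbp5* from glutamatergic neurons of the forebrain, those of the hippocampus among them. According to the study's methods the dentate gyrus is spared, and glia, interneurons and other cells of the tissue also keep the gene. ELS (early life stress) was limited bedding and nesting material for the dam and pups in the early postnatal period, which the control condition lacked. The tissue consisted of frozen punches of dorsal and ventral hippocampus, so that each library mixes many cell types, and a lower level of a transcript in such a sample cannot be told apart from fewer cells that make it. The design asks whether rearing, genotype or their combination altered the expression of these genes in the adult hippocampus.

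Clustered protocadherins are recognition molecules. Each protein binds the same isoform on an opposing membrane, and a neuron uses the combination of isoforms on its surface to tell its own branches from those of other neurons. In the alpha and gamma clusters each isoform starts at its own promoter with its own large variable exon, which is spliced to a few constant exons shared by the whole cluster. Beta isoforms are encoded by single exons and lack the constant part. Most isoforms are alternate ones, of which a neuron chooses a few by a largely random activation of promoters that involves CTCF, cohesin and DNA methylation. The 5 C-type isoforms (*Pcdhac1*, *Pcdhac2*, *Pcdhgc3*, *Pcdhgc4* and *Pcdhgc5*) stand at the ends of the alpha and gamma clusters and are used more regularly across cells. No nucleotide or protein sequence of these genes is shown.

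In the GENCODE vM21 annotation (GRCm38), the alpha genes run from 36930184 to 37187661, the beta genes from 37264938 to 37524479 and the gamma genes from 37661793 to 37841873, all on the plus strand. The constant exons of the alpha cluster span 2860 bases in most alpha genes, and those of the gamma cluster 2119 bases. Of the 85 annotated genes of the locus in the table, 8 had no exon base free of another gene, and all 8 were at 0 in every mouse. The other 77 had such bases, and none was at 0 in every mouse. *Pcdhga10* is one of the 8, because annotated genes on the opposite strand cover its variable exon. The counts therefore behaved as if reads over shared exon bases, also of genes on opposite strands, had been left out. A count of an alpha or gamma gene thus stands for exon bases that no other gene shares, which for most members is mainly the variable exon. These bases are more numerous in some members, with 4606 in *Pcdhgc5* and 4614 in *Pcdhgb5*, and the part outside the variable exon was not determined. None of the values below measures the constant exons. Since lengths with and without shared bases differ, levels of different genes are given per kilobase (kb) of exon not shared with any other gene, unless stated otherwise.

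A few names in the table need care. A row named *Pcdhga8* with the identifier ENSMUSG00000023036 (37815079 to 37841873) is *Pcdhgc4* in vM21, and it is called so here. The table holds a pair of rows named *Pcdha11*. The one with identifier ENSMUSG00000007440 begins at 37005203, where RefSeq places *Pcdha10*, and the one with identifier ENSMUSG00000102206 begins at 37010712. Reads may also fit several isoforms. Among the unshared exon stretches of 100 bases, up to 9.80% (in *Pcdhgb2*) also occur in transcripts of other genes, mostly of the neighbouring isoforms, and 9.72% do so in *Pcdha6*.

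Libraries held from 18347283 to 26555623 counted reads (median 21385946.5), and 0.0319% to 0.0450% of them fell on the 57 genes. The values of *Fkbp5* did not overlap between genotypes, with 47.7 to 63.4 CPM (the unit of counts scaled to library size, here by TMM) in the 12 *Fkbp5*lox/lox mice and 8.71 to 26.5 in the 12 *Fkbp5*Nex mice. Sums of cell type and tissue markers are given, here and below, in CPM without TMM scaling. Hippocampal markers were present in every mouse. Their summed levels were 313.2 to 857.5 CPM for 4 CA1 genes, 161.2 to 434.9 for 4 CA3 genes and 157.1 to 823.5 for 5 granule cell genes. Genes of tissue beside the hippocampus varied most, from 14.3 to 4623.6 CPM for 5 choroid plexus genes and from 48.9 to 360.0 for 6 thalamic genes, and markers of serotonergic neurons summed to at most 1.9 CPM.

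One library stood apart. In the *Fkbp5*Nex control mouse 52, tested members of the alpha cluster lay at a median of 0.66 below the mean of the other mice on the log2 CPM scale, and those of the gamma cluster 0.54 below it, whereas the beta cluster lay 0.04 below. The medians of the other 23 mice went no lower than -0.17, -0.24 and -0.24. Mouse 52 was the lowest of all mice for 22 of 53 tested members, including 13 gamma members, while no other mouse was the lowest for more than 5. The same library had low values for long transcripts of all genes. In the fifth of genes with the longest transcripts its median deviation was -0.25, against 0.22 in the fifth with the shortest, and over genes the Spearman correlation of its deviation with transcript length was -0.45, against -0.15 to 0.19 in the other mice. Its sum of 4 astrocyte markers was 2513.9 CPM, against a median of 1331.3 and a range of 1007.1 to 3305.0 in the other mice, and its sum of the 5 choroid plexus genes was the lowest, at 14.3 against 16.9 to 4623.6. Cluster sums and medians, the C-type share and several single values are also given without it, and the part of transcript length or of cell composition in them was not tested.

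**Figure D1:**
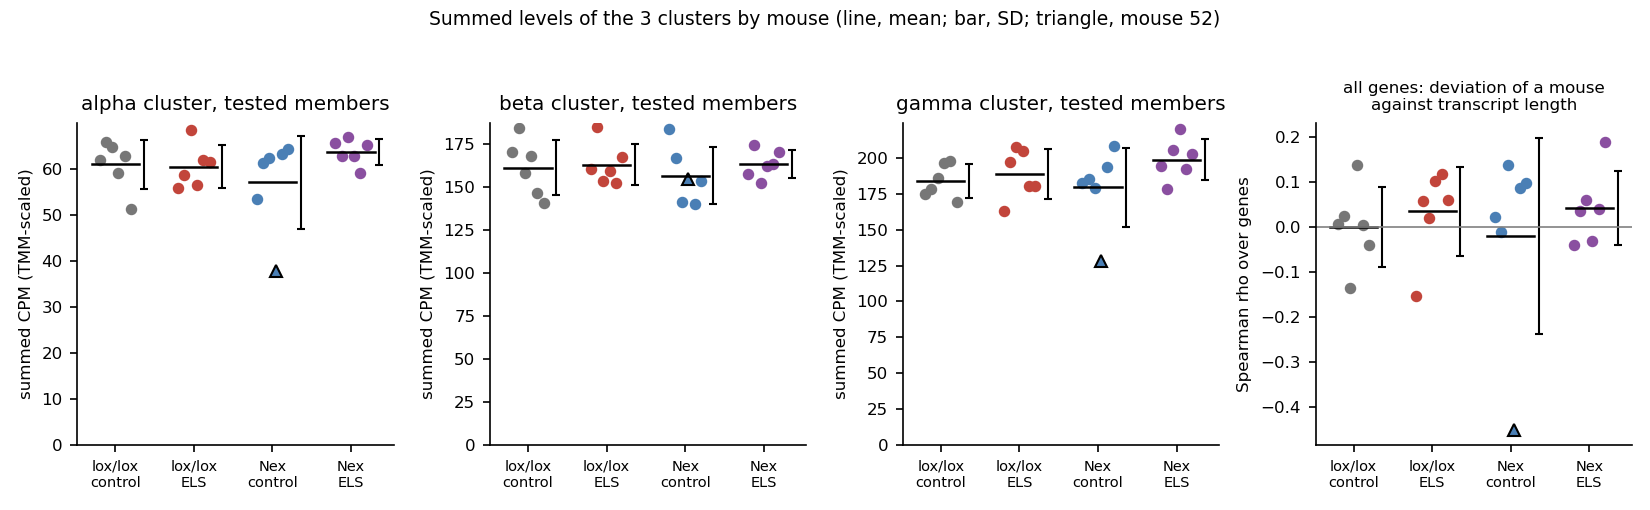
Summed CPM (TMM-scaled) of the tested alpha, beta and gamma members in each mouse (points), with the mean (line) and SD (bar) of the 6 mice of each group, and, in the last panel, the Spearman correlation over genes between a mouse's deviation from the other mice and transcript length. The triangle is mouse 52, which had the lowest alpha sum (37.8), the lowest gamma sum (127.9) and a correlation of -0.45, but a beta sum within the range of the other mice.

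Most of the family was expressed at a low level. Of the 57 genes, 53 had at least 10 reads in every mouse of at least 1 group and were tested (11 alpha, 21 beta and 21 gamma). The other 4 were *Pcdha4*, with 0 to 7 reads per mouse, *Pcdha8*, with 2 to 29, *Pcdhb1*, with 1 to 14, and the *Pcdha11* row ENSMUSG00000102206, with 5 reads in all mice together. For *Pcdha4* only 404 bases are free of other genes, since an annotated read-through transcript covers most of its variable exon. Summed over the tested members, the alpha cluster had 60.5 ± 6.38 CPM, the beta cluster 161.1 ± 13.0 and the gamma cluster 187.7 ± 18.9 (SD, n = 24). Without mouse 52 the sums were 61.5 ± 4.26, 161.3 ± 13.2 and 190.3 ± 14.2 (n = 23).

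C-type members held 3 of the top places. *Pcdhgc5*, whose protein binds the gamma 2 subunit of GABA-A receptors, was the highest of the 53 with 12.8 ± 1.57 CPM per kb (SD, n = 24). *Pcdhac2*, which is known for the spacing of serotonergic axons, followed with 10.4 ± 1.36, and *Pcdhgc3*, which takes part in the branching of dendrites, with 7.599 ± 1.35. The other C-type members were not high. *Pcdhgc4*, which is required for the survival of many interneurons, had 2.46 ± 0.38 CPM per kb and ranked 18th. *Pcdhac1*, an isoform that needs another protocadherin to reach the cell surface, had 1.02 ± 0.18 and ranked 42nd, below most alternate alpha isoforms. *Pcdhac2* and *Pcdhgc5* have the last variable exon of their clusters. Together the 5 C-type members took 28.2% ± 1.95 of the summed CPM of the tested members (SD, n = 24), from 23.0% in mouse 52 to 31.3%. Without mouse 52 the share was 28.4% ± 1.64 (n = 23), from 25.8%.

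Alternate isoforms differed among themselves as well. In the alpha cluster the 9 tested alternate members lay between 0.59 CPM per kb (*Pcdha1*) and 1.96 (*Pcdha12*), a range of 3.30-fold. The 21 beta members spanned 8.70-fold, from 0.72 for *Pcdhb21* to 6.29 ± 0.91 for *Pcdhb9*, and *Pcdhb17* was next with 3.54 ± 0.33. The 18 alternate gamma members spanned 10.2-fold, from 0.58 for *Pcdhgb8* to 5.96 for *Pcdhga11*. Their median was 2.35 CPM per kb, against 1.52 for the beta members and 1.26 for the alternate alpha members. For most neighbours in the order of levels, the ranges over the 24 mice overlapped. They were apart for 1 of 10 pairs in the alpha cluster, 1 of 20 in the beta cluster and 0 of 20 in the gamma cluster. The means of neighbours differed by more than the larger SD of the pair for 3 alpha, 4 beta and 6 gamma pairs. Neither criterion uses the fact that both members of a pair were measured in the same mice. Per kb of the whole annotated exon length, constant exons included, *Pcdhac2* was 9.70 times the median member of its cluster, against 8.26 times on the unshared length, and *Pcdhgc5* 6.00 times, against 4.998. Each of these ratios was taken within a mouse and then averaged over the 24 mice, and so differs from a ratio of the mean levels above. Per kb of the whole exon length *Pcdha9* was second in the alpha cluster, in place of *Pcdha12*. *Pcdhga11*, with only 1256 unshared bases, was then 8th in the gamma cluster, against 3rd on the unshared length. The highest alternate gamma member on the whole length was *Pcdhga3*, at 2.21 CPM per kb, and the lowest was *Pcdhgb8*, at 0.32. On that length the beta members ran from 0.65 (*Pcdhb21*) to 6.29 (*Pcdhb9*), so that their span was wider than that of the alternate gamma members. The median of the alternate gamma members then lay below that of the beta members. *Pcdhb12* was 16th in the beta cluster on the whole length, against 4th on the unshared length.

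**Figure D2:**
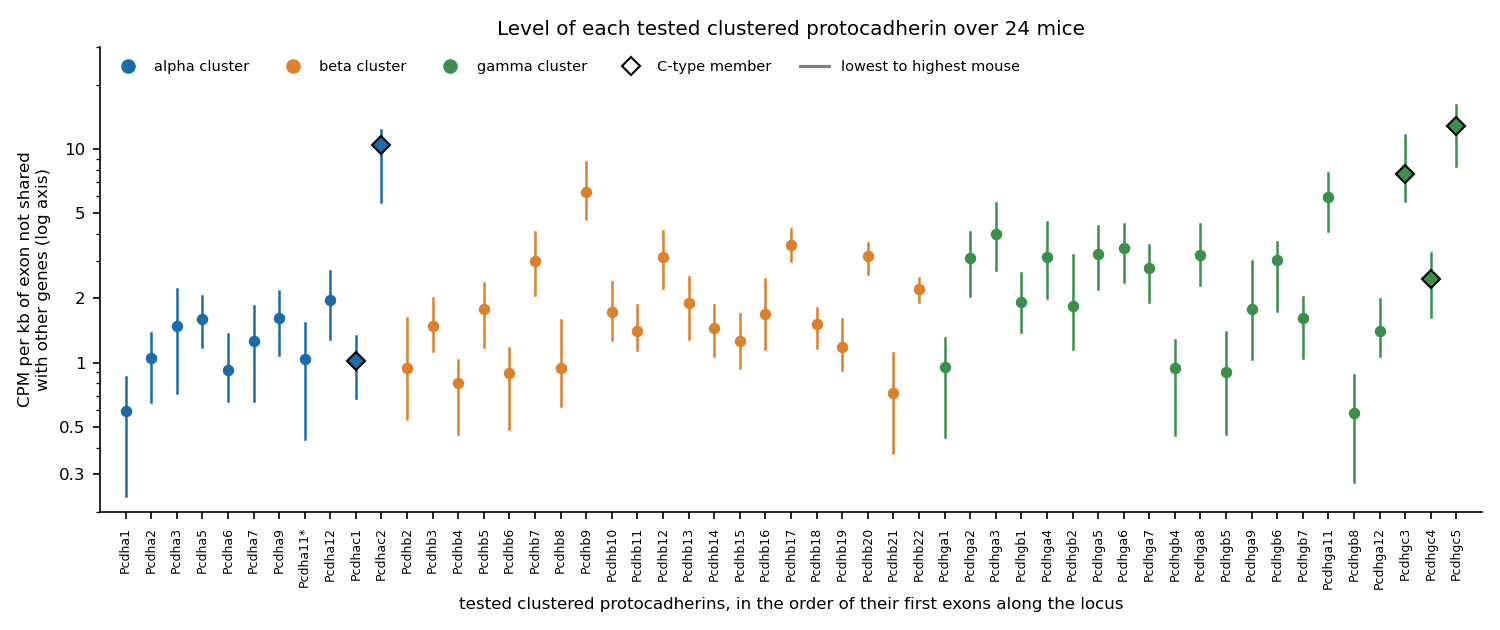
Level of each of the 53 tested members in CPM per kb of exon not shared with other genes (log axis), in the order of the first exons along the locus. Points are means over 24 mice, lines run from the lowest to the highest mouse, and diamonds are the C-type members, of which *Pcdhgc5* (12.8) and *Pcdhac2* (10.4) were highest. The asterisk marks the *Pcdha11* row ENSMUSG00000007440.

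Members also differed in how much they varied between mice. The ratio of the highest to the lowest mouse was smallest for *Pcdhb22*, at 1.30 (11.8 to 15.3 CPM), and largest for *Pcdha1*, at 3.58 (0.59 to 2.13 CPM), where mouse 52 was the lowest. Without mouse 52 the largest ratio was 3.32, for the *Pcdha11* row ENSMUSG00000007440 (1.15 to 3.81 CPM), and that of *Pcdhb22* was again 1.30. The biological coefficient of variation, which is the square root of edgeR's dispersion after group means and surrogate variables, had a median of 12.3% over the 53 members and ranged from 6.36% for *Pcdhb22* to 18.9% for *Pcdhgb2*. Its median over all 16209 tested genes was 7.59%, but those genes were also higher, with a median of 19.9 CPM against 5.61 for the members. It was 6.74% for *Pcdhac2*, 7.79% for *Pcdhb9* and 10.5% for *Pcdhgc5*. Counting error alone amounts to 2.84% of the count of *Pcdhgc5* and to 18.8% of that of *Pcdhgb8*, so that single low members are measured coarsely in each mouse.

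**Figure D3:**
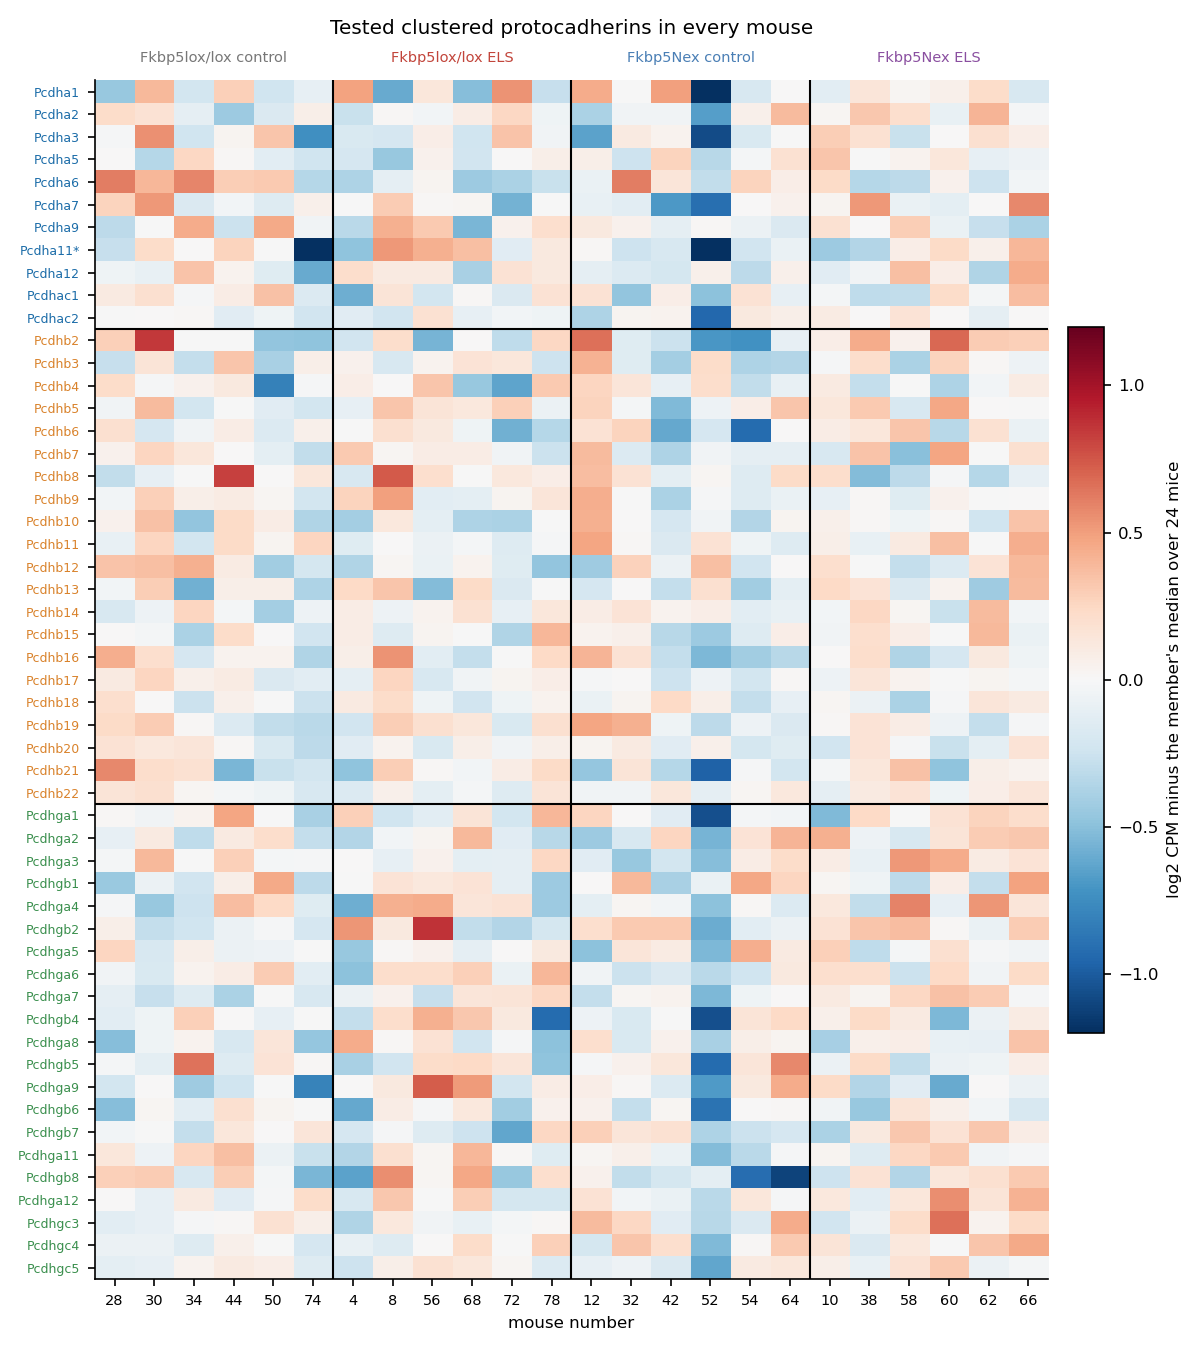
Deviation of each tested member (rows, in locus order, coloured by cluster) from its median over all mice on the log2 CPM scale, in each of the 24 mice (columns, by group). Blue is low and red is high, and the column of mouse 52 is blue for most alpha and gamma members. The asterisk marks the *Pcdha11* row ENSMUSG00000007440.

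No member passed an FDR of 0.02 in any comparison. In *Fkbp5*lox/lox mice, ELS gave 0 called members of 53 in edgeR's quasi-likelihood test, where 0% of all 16209 tested genes were called, and 0 members in DESeq2, where 0.00617% of all genes were. The log2 fold changes (ELS against control) ran from -0.58 to 0.50 with a median of -0.01, against 0.00 over all tested genes, and 26 were above 0. At an unadjusted p under 0.05, edgeR gave 4 members (2 higher and 2 lower after ELS), which is 7.55% of the members, against 4.86% of all tested genes, and DESeq2 also gave 4, against 4.08% of all genes. The values of the 2 groups of 6 mice stood fully apart for 0 members, against 0.0925% of all tested genes. The median standard error of a member's log2 fold change was 0.15, and for 46 of 53 members the estimate with 2 standard errors stayed within a 1.5-fold change in either direction, and for all 53 within a 2-fold change. Of the 4 CA3 genes, 3 were higher after ELS at an unadjusted p under 0.05 (median log2 fold change 0.28), and 1 of them, *Bok*, at 0.37 (SE 0.07), was the only gene that DESeq2 called here (named after its values were seen). Its edgeR value did not pass (adjusted p = 0.45), and the part of CA3 tissue in the values of the protocadherins was not tested.

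*Pcdha6*, an alternate alpha isoform (36967631 to 37187657), had the smallest p of the family in this comparison. Its values were 1.32 to 2.56 CPM in *Fkbp5*lox/lox controls (median 2.15) and 1.24 to 1.71 in *Fkbp5*lox/lox ELS mice (median 1.35). All but 1 of the control mice lay above all 6 ELS mice, and the lowest control lay among them. The log2 fold change was -0.58 (SE 0.17, unadjusted p = 0.0020, adjusted p = 0.95 in edgeR with Benjamini-Hochberg adjustment). In *Fkbp5*Nex mice it was -0.47 (SE 0.16, unadjusted p = 0.0087), with 1.37 to 2.58 CPM in controls and 1.32 to 1.97 in ELS mice, which overlapped broadly. That estimate was -0.24 without surrogate variables. Over both genotypes the log2 fold change was -0.53 (SE 0.12, unadjusted p = 0.00025, adjusted p = 0.9995), and the ELS effect differed between genotypes by -0.11 (SE 0.23). These values rest on 23 to 55 reads per mouse.

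The other members at an unadjusted p under 0.05 for ELS in *Fkbp5*lox/lox mice were *Pcdhac1*, *Pcdhgb2* and *Pcdhga9*. *Pcdhac1* had a log2 fold change of -0.37 (SE 0.16), with 2.34 to 3.36 CPM in controls and 1.75 to 2.96 after ELS. For *Pcdhgb2* it was 0.42 (SE 0.20), and for *Pcdhga9* 0.50 (SE 0.19). The members with the highest levels had estimates near 0. The log2 fold change after ELS was -0.01 for *Pcdhgc5* (SE 0.10), with 53.3 to 64.001 CPM in controls and 49.9 to 67.4 in ELS mice, and 0.06 for *Pcdhac2* (SE 0.07), with 27.8 to 32.9 and 27.9 to 37.1 CPM. *Pcdhgc3*, *Pcdhgc4*, *Pcdhb9* and *Pcdhb17* had values between -0.09 and 0.11. Those of the lowest members were 0.39 for *Pcdha1* (SE 0.21), 0.05 for *Pcdhb21* (SE 0.17) and -0.13 for *Pcdhgb8* (SE 0.23).

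In *Fkbp5*Nex mice, ELS again gave 0 called members (0% of all genes were called in edgeR and 0% in DESeq2). Of the 53 log2 fold changes 38 were above 0, with a median of 0.06, whereas 52.3% were above 0 among all tested genes, with a median of 0.00. An unadjusted p under 0.05 was reached by 4 members in edgeR (7.55%, against 2.8% of all genes) and by 3 in DESeq2 (5.66%, against 2.1%). The groups stood fully apart for 0 members, against 0.0679% of all genes. The 4 members were *Pcdha6*, *Pcdhb2*, with a log2 fold change of 0.47 (SE 0.17), *Pcdhb3*, with 0.28 (SE 0.11), and *Pcdhga7*, with 0.24 (SE 0.11). Without mouse 52, *Pcdhga7* had 0.21 (SE 0.11, unadjusted p = 0.068 in edgeR), and *Pcdhgb8* and *Pcdhga9* joined the other 3, at 0.52 (SE 0.24) and -0.39 (SE 0.18). For 43 of 53 members the estimate with 2 standard errors stayed within a 1.5-fold change. Choroid plexus genes were also higher after ELS at an unadjusted p under 0.05, 2 of 3 tested, with a median log2 fold change of 1.68 and 0 called by either tool. Their part in the values of the members was not tested.

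The position of the whole clusters in this comparison depended on mouse 52, which is one of its controls. The summed alpha CPM was 57.0 ± 10.2 in the controls and 63.6 ± 2.81 after ELS (SD, n = 6), and 60.8 ± 4.35 in the 5 controls without mouse 52. For the gamma cluster the sums were 179.5 ± 27.4 and 198.9 ± 14.1, and 189.8 ± 11.8 in the 5 controls. The beta sums, 156.6 ± 16.5 and 163.4 ± 8.20, hardly changed, with 157.0 ± 18.4 in the 5 controls. Without surrogate variables the median log2 fold changes of the alpha, beta and gamma members were 0.16, 0.09 and 0.15 with mouse 52, and 0.04, 0.08 and 0.06 without it. With surrogate variables they were 0.06, 0.06 and 0.06, and without mouse 52 they were 0.03, 0.08 and 0.00. In *Fkbp5*lox/lox mice the sums differed less than their spread, with 60.9 ± 5.26 and 60.4 ± 4.63 CPM for alpha, 161.2 ± 16.2 and 162.9 ± 12.1 for beta, and 183.7 ± 11.8 and 188.8 ± 17.3 for gamma (control and ELS).

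Pooled over both genotypes, the ELS comparison gave 0 called members (0% of all genes in edgeR and 0% in DESeq2). *Pcdha6*, *Pcdhb3* and *Pcdhga7* reached an unadjusted p under 0.05 (5.66% of the members, against 3.56% of all genes), and 3 members did in DESeq2, against 2.71% of all genes. *Pcdhb3* had a log2 fold change of 0.24 (SE 0.08), and *Pcdhga7* one of 0.23 (SE 0.08). The median over members was 0.04, with 34 of 53 above 0, and 52 of 53 estimates stayed within a 1.5-fold change with 2 standard errors.

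**Figure D4:**
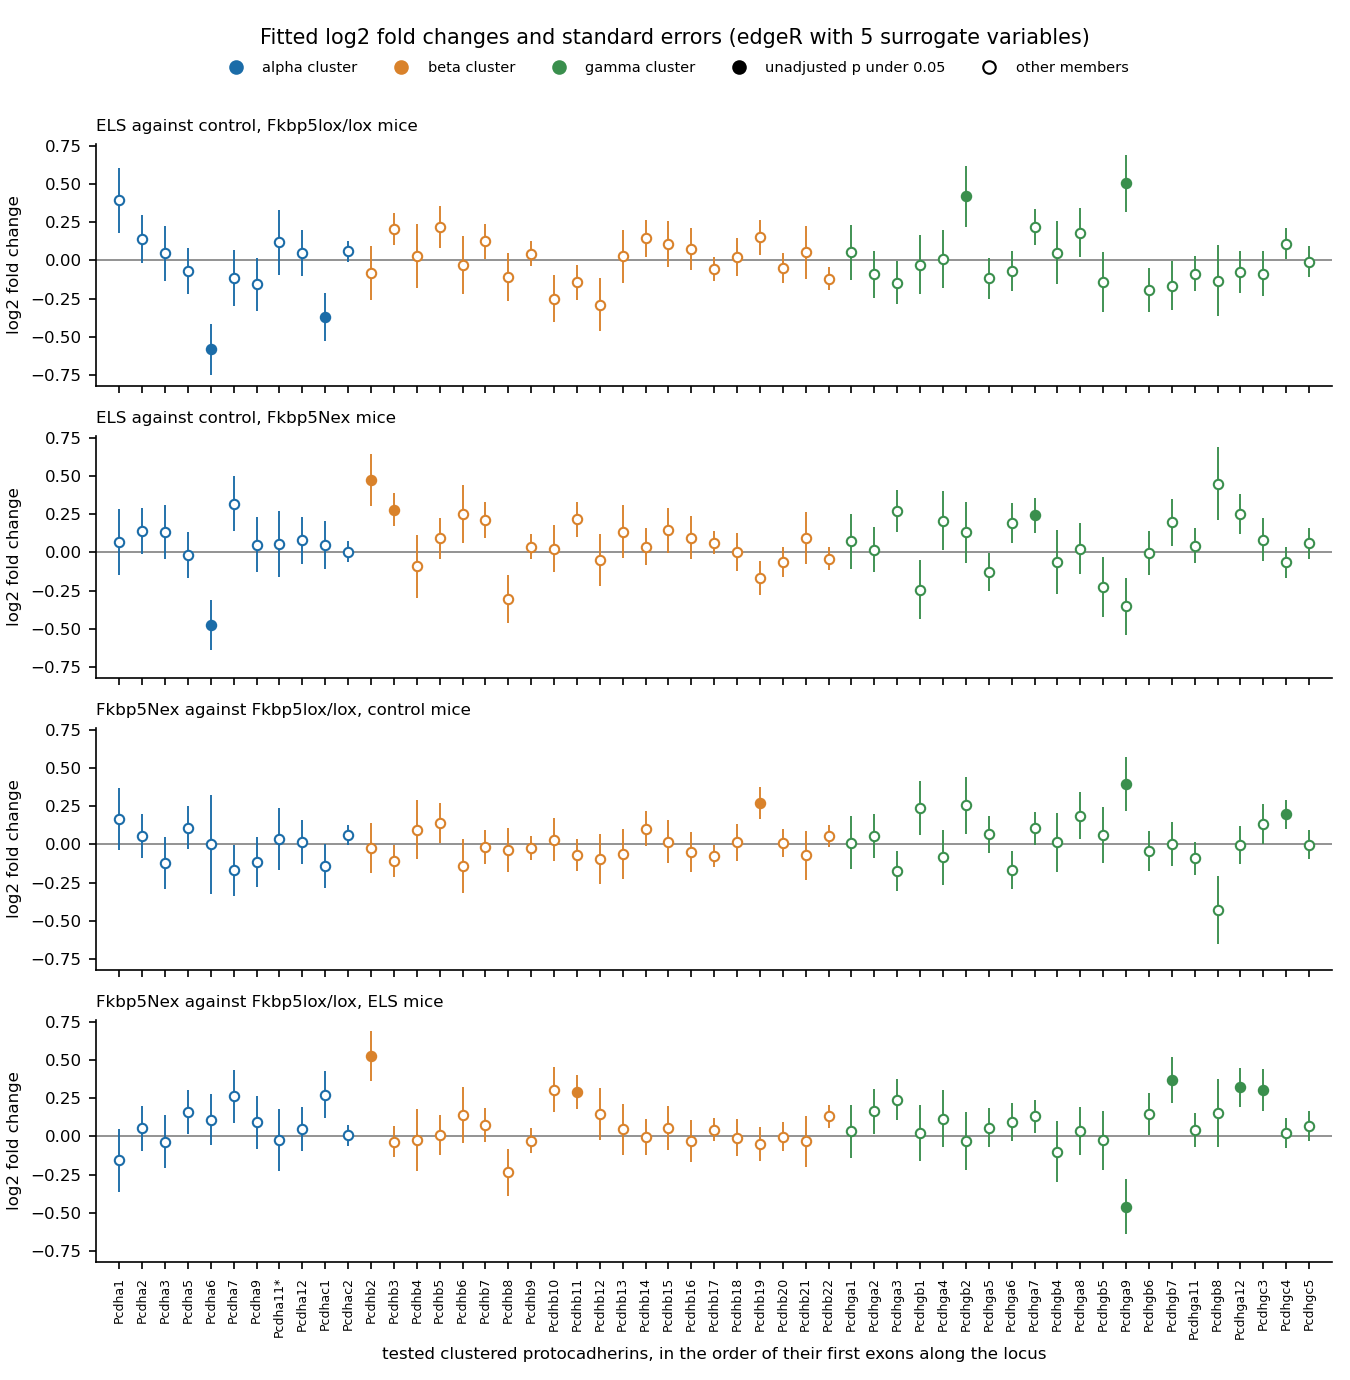
Log2 fold changes (points) and standard errors (bars) of the 53 tested members in the 4 comparisons of 2 groups, in locus order and coloured by cluster. Filled points have an unadjusted p under 0.05 (4, 4, 3 and 6 members from top to bottom), and none passed an FDR of 0.02. The asterisk marks the *Pcdha11* row ENSMUSG00000007440, and the wide bar of *Pcdha6* in control mice comes with an estimate near 0, from which its standard error could not be derived precisely.

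Genotype gave no called member either. In control mice, 0 of 53 members passed, where edgeR called 0.0494% of all tested genes and DESeq2 called 0.34%, with 0 members. *Pcdhb19*, *Pcdhga9* and *Pcdhgc4* had an unadjusted p under 0.05, all higher in *Fkbp5*Nex mice, which is 5.66% of the members against 8.69% of all genes, and DESeq2 gave 2 (3.77%, against 7.75% of all genes). *Pcdhb19*, an alternate isoform of a single exon (37496991 to 37504128), had the smallest p, with a log2 fold change of 0.27 (SE 0.11, adjusted p = 0.47 in edgeR with Benjamini-Hochberg adjustment). Its values were 6.58 to 10.2 CPM in *Fkbp5*lox/lox controls (median 7.83) and 6.63 to 11.46 in *Fkbp5*Nex controls (median 7.92), and the medians lay closer than the fitted value, which was 0.10 without surrogate variables, 0.18 without the *Fkbp5*lox/lox control mouse 44 and 0.23 without mouse 52 (unadjusted p = 0.064 in edgeR). *Pcdhgc4* had 7.20 to 8.63 CPM in *Fkbp5*lox/lox controls and 5.71 to 10.4 in *Fkbp5*Nex controls, where mouse 52 was the lowest, with a log2 fold change of 0.20 (SE 0.09), and also 0.20 without mouse 52, at an unadjusted p of 0.0505 in edgeR. Without mouse 52, *Pcdhga9* kept an unadjusted p under 0.05 in edgeR, at 0.40 (SE 0.17). *Pcdhgb8* then joined it, but lower in *Fkbp5*Nex mice, at -0.48 (SE 0.22). The median over members was 0.01, with 28 of 53 above 0, and the genotypes stood fully apart for 0 members, against 0.16% of all genes. Of 5 granule cell and 3 tested choroid plexus genes, edgeR called 2 and 1, all lower in *Fkbp5*Nex controls. DESeq2 called 3 and 2 of them. Of 6 thalamic, 4 CA3 and 4 astrocyte genes, 2 each were higher at an unadjusted p under 0.05 in edgeR. The part of cell composition in the values of the members was not tested.

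After ELS, 6 members reached an unadjusted p under 0.05 between genotypes, 5 of them higher in *Fkbp5*Nex mice. This was 11.3% of the members, against 6.59% of all tested genes, and none was called by edgeR (0.0123% of all genes) or DESeq2 (0.0247%), although 7 members (13.2%, against 5.68% of all genes) had an unadjusted p under 0.05 in DESeq2. *Pcdhb2* (37294812 to 37297624) had the smallest p. It had 1.71 to 3.01 CPM in *Fkbp5*lox/lox ELS mice (median 2.35) and 2.61 to 4.08 in *Fkbp5*Nex ELS mice (median 3.10), so that the groups overlapped at their edges. The log2 fold change was 0.53 (SE 0.16, unadjusted p = 0.0042, adjusted p = 0.60 in edgeR with Benjamini-Hochberg adjustment). The others were *Pcdhb11* at 0.29 (SE 0.11), *Pcdhgb7* at 0.37 (SE 0.15), *Pcdhga12* at 0.32 (SE 0.13), *Pcdhgc3* at 0.30 (SE 0.14) and *Pcdhga9* at -0.46 (SE 0.18). The median over members was 0.05, with 36 of 53 above 0 against 48.9% of all genes, and the genotypes stood fully apart for 0 members, against 0.173% of all genes. Without surrogate variables 0 members reached an unadjusted p under 0.05 between genotypes, against 4.23% of all genes in controls and 4.47% after ELS.

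Pooled over both rearing conditions, 0 members were called, against 0.117% of all genes in edgeR and 0.459% in DESeq2. *Pcdhgc3* and *Pcdhb2* had an unadjusted p under 0.05 (3.77% of the members, against 11.5% of all genes), and 1 member had one in DESeq2 (1.89%, against 10.2%). *Pcdhgc3* (37806364 to 37841873) had 12.2 to 15.0 CPM in *Fkbp5*lox/lox controls, 10.4 to 14.5 in *Fkbp5*lox/lox ELS mice, 10.6 to 18.03 in *Fkbp5*Nex controls and 11.3 to 21.1 in *Fkbp5*Nex ELS mice. The *Fkbp5*Nex mice reached higher but began as low, and the log2 fold change was 0.22 (SE 0.10, adjusted p = 0.40 in edgeR with Benjamini-Hochberg adjustment). It was 0.14 without the *Fkbp5*Nex ELS mouse 60 and 0.16 without surrogate variables. An annotated gene on the opposite strand covers 1559 exon bases of *Pcdhgc3*. *Pcdhgc5* and *Pcdhac2* both had a log2 fold change of 0.03 (SE 0.07 and 0.05), and all 53 estimates with 2 standard errors stayed within a 1.5-fold change. The median over members was 0.03, with 39 of 53 above 0 against 49.2% of all genes. Without surrogate variables the medians of the alpha, beta and gamma members were -0.02, 0.00 and 0.01. Some cell type markers moved with the genotype labels. In *Fkbp5*Nex mice the granule cell genes *Prox1* (-0.49, SE 0.06) and *Dsp* (-1.07, SE 0.14) and the choroid plexus gene *Ttr* (-3.07, SE 0.46) were called lower, and the granule cell sum was 157.1 to 577.1 CPM in *Fkbp5*Nex and 212.6 to 823.5 in *Fkbp5*lox/lox mice. Of the 6 thalamic genes, 3 were instead higher at an unadjusted p under 0.05 in edgeR (median log2 fold change 0.37), and DESeq2 called 1. It also called 1 of the 4 CA3 genes. Between genotypes in controls alone, both tools also called granule cell and choroid plexus genes, as given above. Between genotypes after ELS alone, both tools called 0 granule cell and 0 choroid plexus genes, but DESeq2 called 1 of the 4 CA3 genes. The part of cell composition in the values of the protocadherins was not tested.

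**Figure D5:**
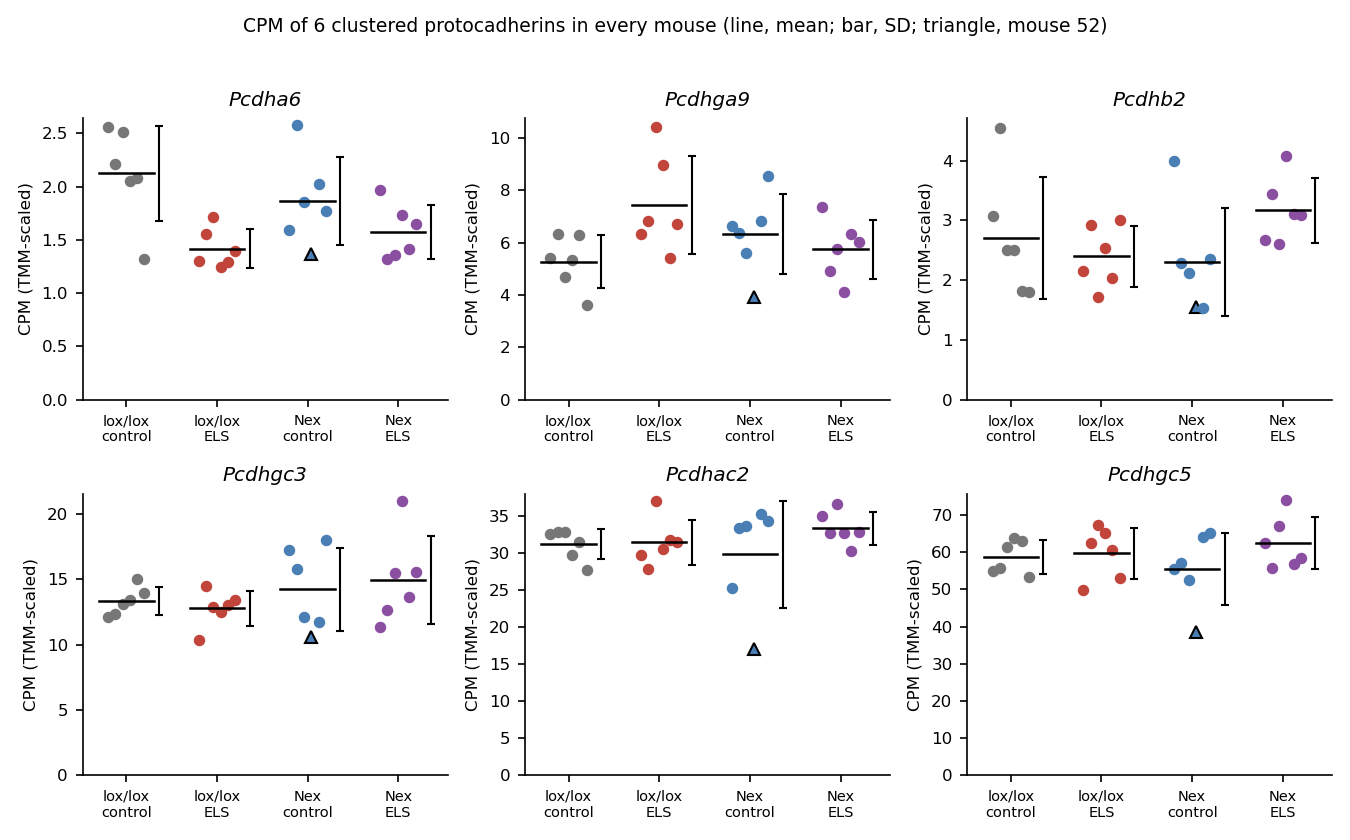
CPM (TMM-scaled) of 6 members in every mouse (points), with the mean (line) and SD (bar) of the 6 mice of each group; *Pcdha6*, *Pcdhga9*, *Pcdhb2* and *Pcdhgc3* had the smallest p in at least 1 comparison, and *Pcdhac2* and *Pcdhgc5* the highest levels. The triangle is mouse 52, and the groups overlapped for every member shown.

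The interaction asked whether ELS acted differently in the genotypes (its effect in *Fkbp5*lox/lox minus its effect in *Fkbp5*Nex mice). EdgeR called 0 members and 0% of all genes, and DESeq2 0 members and 0% of all genes. *Pcdhga9*, *Pcdhb2*, *Pcdhb11* and *Pcdhga3* had an unadjusted p under 0.05 (7.55% of the members, against 4.02% of all genes), as did 4 members in DESeq2 (against 3.3% of all genes). *Pcdhga9*, an alternate gamma isoform (37736936 to 37841870), had the largest estimate. Its values were 3.62 to 6.31 CPM in *Fkbp5*lox/lox controls (median 5.37) and 5.42 to 10.4 after ELS (median 6.75), but 3.93 to 8.55 in *Fkbp5*Nex controls (median 6.501) and 4.13 to 7.36 after ELS (median 5.88). ELS mice thus lay higher than controls in *Fkbp5*lox/lox and slightly lower in *Fkbp5*Nex mice, with overlap in both. The difference of the ELS effects was 0.85 on the log2 scale (SE 0.25, unadjusted p = 0.0028, adjusted p = 0.9995 in edgeR with Benjamini-Hochberg adjustment). It was 0.84 without mouse 52 and 0.63 without surrogate variables. For *Pcdhb2* the difference was -0.55 (SE 0.24), for *Pcdhga3* -0.41 (SE 0.19) and for *Pcdhb11* -0.36 (SE 0.16). The comparison was the least precise one, with a median standard error of 0.21, and only 27 of 53 members were held within a 1.5-fold difference by 2 standard errors. At an unadjusted p under 0.05 in edgeR, 3 of 4 CA3 genes had a positive difference. Of 5 granule cell and 3 tested choroid plexus genes, 2 each had a negative one. The part of these tissues in the values of the members was not tested.

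Genes that act on or with the family were read from the same fit. Of 20 regulators of promoter choice, all of which were tested, edgeR and DESeq2 called 0 in every comparison, and at most 3 had an unadjusted p under 0.05 in edgeR. That count was for genotype over both rearing conditions, where 11.5% of all genes had one. CTCF, the factor that brings the chosen promoters to their enhancers, is encoded by *Ctcf*, which had medians of 71.9 to 75.9 CPM in the 4 groups and a log2 fold change of 0.03 (SE 0.05) after ELS in *Fkbp5*lox/lox mice. *Smchd1*, which keeps clustered protocadherin promoters silent, had medians of 44.6 to 48.0 CPM and a log2 fold change of 0.00 (SE 0.05). *Dnmt3b*, the enzyme that methylates these promoters in the embryo, was low in the adult tissue, at 0.72 to 1.58 CPM per mouse. Among the regulators, the cohesin subunit gene *Stag1* had the smallest p for genotype over both rearing conditions, with a log2 fold change of -0.10 (SE 0.03, adjusted p = 0.18 in edgeR with Benjamini-Hochberg adjustment), and it was named after its values were seen.

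Of 12 non-clustered protocadherins, whose genes lie elsewhere, 11 were tested and 0 were called by edgeR or DESeq2 in any comparison, with at most 1 at an unadjusted p under 0.05. *Pcdh10* had medians of 90.6 to 106.3 CPM, *Pcdh17* of 87.7 to 97.6 and *Pcdh19*, the gene of a human epilepsy, of 121.3 to 130.0. Without Cre, ELS gave them log2 fold changes of -0.04 (SE 0.05), -0.08 (SE 0.08) and -0.04 (SE 0.05). For genotype over both rearing conditions *Pcdh10* had 0.07 (SE 0.04, unadjusted p = 0.049). Of 16 genes for binding partners and processing enzymes, such as the kinase *Ptk2* and the protease *Adam10*, 0 were called by either tool in any comparison, with at most 1 at an unadjusted p under 0.05.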

How the data were processed

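Bulk mRNA libraries of 24 mice were used. Counts of reads per gene, without normalization, were deposited by the authors. Per the submitters' processing notes and the study's methods, reads were aligned with HISAT2 2.0.5 and counted with featureCounts 1.5.0-p3, and DESeq2 was used. The methods also state that surrogate variables were used and that a sample was removed as an outlier in a principal component analysis. Which sample this was, and whether it is among the 24 used here, is not stated. Genome build, annotation, strandedness and the handling of shared reads are not given in the sources used here. Columns were matched to mice by their labels, and 0 columns had no sample. No batch is given, and the labels do not tie mice to litters. According to the study's methods, the rearing condition was assigned to a dam together with its litter. The tests here treat mice as independent, so standard errors could be too small if littermates are among them.

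All other values were computed here in R 4.3.3 (edgeR 4.0.16, sva 3.50.0, DESeq2 1.42.0) and Python 3.11.15 (matplotlib 3.10.9). A gene was tested where all mice of 1 or more groups had 10 counts (16209 genes). One model of all mice held 4 group means and 5 surrogate variables from svaseq, whose variance the groups explained by 2.97% to 24.0%. Contrasts were tested with edgeR's quasi-likelihood test on TMM-scaled counts, with Benjamini-Hochberg adjustment over all tested genes at an FDR of 0.02. The F statistic and the estimate gave the standard error. Exon lengths and positions come from GENCODE vM21, which held 46488 of 46983 identifiers. The fitting step was tested on simulated data. Transcript length is the median of a gene's protein-coding transcripts.

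Named are the C-type members, in each cluster the 2 highest and the lowest member per kb of annotated exon, the member with the smallest p in each contrast, fixed genes of the other lists, listed genes past the FDR, and *Fkbp5* and *Neurod6* as checks of genotype. Other members are named where a count was small or where the unshared length changed the order, after their values were seen. Members and gene lists were chosen with earlier results of these data known. Alternatives were no surrogate variables, DESeq2 size factors, filterByExpr, no filter, an FDR of 0.05, DESeq2's Wald test, only the 12 mice compared, and each mouse left out in turn. *Neurod6* had medians of 259.0 and 255.1 CPM in *Fkbp5*lox/lox control and ELS mice, and of 159.2 and 152.7 in *Fkbp5*Nex control and ELS mice. The values of the genotypes overlapped. Since the Cre allele lies at this locus, loss of *Fkbp5* and presence of Cre cannot be told apart in the genotype comparisons.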

Additional observations from a re-analysis of the deposited data

Results flagged for a closer look

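In 76 groups of 6 mice (15 members, the 3 cluster sums and the C-type share, in each of the 4 groups), the highest or lowest mouse was compared with its nearest neighbour relative to the range of the group, by Dixon's test at 95%. Chance alone flags about 1 group in 20, and 2 were flagged. *Pcdhb2* was 4.00 CPM in the *Fkbp5*Nex control mouse 12, the highest of its group, and the next mouse had 2.36. The gamma sum was 127.9 CPM in the *Fkbp5*Nex control mouse 52, the lowest of its group, and the next had 178.9.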

How the results depend on the processing

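Members called stayed at 0 in all 7 comparisons with DESeq2 size factors, filterByExpr, no filter on low counts, DESeq2's Wald test, an FDR of 0.05, no surrogate variables, only the 12 mice compared (comparisons of 2 groups), and each mouse left out in turn (0 to 0). The estimates of the members with the smallest p kept their sign in every one of these. With each mouse left out, *Pcdha6* ranged from -0.69 to -0.53 for ELS in *Fkbp5*lox/lox mice (adjusted p in edgeR 0.71 to 0.9992), from -0.54 to -0.35 in *Fkbp5*Nex mice and from -0.58 to -0.49 over both, *Pcdhb19* from 0.18 to 0.33, *Pcdhb2* from 0.46 to 0.60, *Pcdhgc3* from 0.14 to 0.25 and *Pcdhga9* from 0.64 to 1.02. In the 12 *Fkbp5*Nex mice alone *Pcdha6* was -0.27. Without the C-type members the mean sums of the alpha and gamma clusters were 26.4 and 106.2 CPM, which follows from leaving those members out. Per kb of unshared exon, *Pcdhac2* was on average over mice 8.26 times and *Pcdhgc5* 4.998 times the median member of its cluster in the same mouse, since the unshared length leaves out the constant exons. The runs without mouse 52 for cluster sums, cluster medians and ratios of the highest to the lowest mouse were added after seeing the data. Without it, the alpha median for ELS in *Fkbp5*lox/lox mice was -0.03, against 0.05, although mouse 52 is in neither group of that comparison. In the fits without surrogate variables that median was -0.01 both with and without mouse 52, and the cause of the shift was not tested. No paired analysis was possible because the mouse numbers are not shared between groups. Depth limits the low members most, and the constant exons were not measured.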

Other observations

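The median deviation of the beta members from the other mice on the log2 CPM scale was highest in the *Fkbp5*Nex control mouse 12 (0.25) and the *Fkbp5*lox/lox control mouse 30 (0.24), and lowest in the *Fkbp5*Nex control mouse 42 (-0.24). Mouse 30 was at 0.23 for the alpha members, the highest of all mice. Mouse 42 was at 0.11 for the alpha and -0.04 for the gamma members, and it was the lowest mouse for 4 members, all in the beta cluster. Non-clustered protocadherins of mouse 52 lay at a median of -0.38, below the -0.30 to 0.37 of the other mice.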
